A study of Mus musculus with 6 samples.

Results

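The 10 genes described here belong to NAD synthesis and the kynurenine pathway and were followed in mouse kidneys after ischemia and reperfusion. Afmid, Kmo, Kynu, Haao and Qprt are of the kynurenine route, and Acmsd draws an intermediate of that route away from NAD. The others are Naprt and Nadsyn1 of the nicotinic acid route, Nampt of salvage, and Nmnat1, which the routes share. All 10 were taken by symbol from the authors' table of read counts, where each matched 1 row, so that 10 of 25031 rows are described. The low-count filter removed none of them, and 15416 genes were tested in all. The libraries were whole-kidney messenger RNA of male C57BL/6 mice, wild type and 7 to 8 weeks old, in which both kidneys had been made ischemic for 23 minutes at a core temperature of 37 °C. In 3 libraries the animals had received 5 mg/kg of (+)CePPy, positively charged polypyrrole nanoparticles doped with cerium, by vein straight after the injury (CePPy), and in 3 they had received the same volume of saline (vehicle). The comparison asks how the particles changed transcript levels in the injured kidney. All 6 libraries come from injured kidneys, so levels before injury were not analysed here, and no label gives the time of collection. Nothing in the labels ties a library to an animal of its own, so every p-value below reflects library-to-library spread, part of which may be technical.

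NAD carries electrons in energy metabolism and is used up by sirtuins, PARP enzymes and CD38. In the kynurenine (de novo) route, tryptophan is opened to N-formylkynurenine, which AFMID turns into kynurenine, KMO hydroxylates it, KYNU cleaves the product, and HAAO opens the ring to a short-lived semialdehyde. That semialdehyde closes by itself to quinolinate, which QPRT joins to phosphoribosyl pyrophosphate, or is drawn off by ACMSD towards full oxidation. NAPRT starts the Preiss-Handler route from nicotinic acid, NAMPT recycles nicotinamide, NMNAT1 adds the adenylyl group in the nucleus, and NADSYN1 amidates the last intermediate of the acid routes. The proximal tubule is a main site of the de novo route in the kidney, and loss of NAD is a known feature of ischemic kidney injury in mice.

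Library totals lay between 29762157 and 37415213 counts. Levels are given as CPM, the read count relative to TMM-scaled library size, in which 1 count equalled 0.0266 to 0.0333 CPM. The 10 genes took between 0.0566% and 0.0727% of counts in CePPy libraries and between 0.0464% and 0.0553% in vehicle libraries. The libraries are named by the numbers in their titles. By proximal tubule markers, CePPy 1 stood farthest from vehicle and CePPy 2 nearest. All 12 proximal tubule marker genes were detected, and their summed level was 9178, 4023 and 5999 CPM in CePPy 1, 2 and 3, against 3410 to 3600 CPM in vehicle. Summed levels of 7 tubular injury markers were 1644 to 3668 CPM in CePPy and 4144 to 4485 CPM in vehicle. Of that sum Havcr1 alone held 1180 to 2466 CPM in CePPy and 2853 to 2954 CPM in vehicle. Fold changes were below 0 for 6 of the 7 and above 0 for Vcam1, with 0 called by edgeR. DESeq2, the alternative test used below, called Havcr1 and Sox9 lower and not the others. Like those of the proximal tubule, markers of the thick ascending limb and of the distal and collecting ducts had higher values, in 5 of 5 and 7 of 7 genes, with 0 called by edgeR. Of these, DESeq2 called Umod, Slc12a1, Egf, Ptger3, Pvalb, Aqp2, Avpr2 and Slc4a1, and not the others. In RNA of whole kidney, fewer cells of a type and less RNA per cell cannot be told apart.

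Promoter sequences are given for Haao, Kmo and Afmid, the 3 genes whose groups did not overlap, and for Qprt, the last enzyme of the kynurenine route, whose groups did. Each is 250 bases before and 50 after the RefSeq start, 5′ to 3′ on the gene's strand, from RefSeq on GRCm38.p6, and windows of 7 of the 10 genes were used here. RefSeq and GENCODE starts can differ, and the windows of Kmo and Haao lie inside the gene spans given below. Capitals mark AGGTCA, the core that nuclear receptors such as HNF4 and PPAR bind, its overlapping form GGTCAAA, and GTTAAT, part of the site of the kidney and liver factor HNF1, each on either strand.
Haao (chr17:83846741-83847040, minus strand): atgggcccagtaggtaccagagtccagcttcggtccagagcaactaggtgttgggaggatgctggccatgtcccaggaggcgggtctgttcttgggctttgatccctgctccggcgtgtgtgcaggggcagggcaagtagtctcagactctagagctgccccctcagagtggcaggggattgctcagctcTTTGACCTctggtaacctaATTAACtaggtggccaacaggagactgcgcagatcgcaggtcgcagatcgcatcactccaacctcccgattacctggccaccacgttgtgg
Kmo (chr1:175631943-175632242, plus strand): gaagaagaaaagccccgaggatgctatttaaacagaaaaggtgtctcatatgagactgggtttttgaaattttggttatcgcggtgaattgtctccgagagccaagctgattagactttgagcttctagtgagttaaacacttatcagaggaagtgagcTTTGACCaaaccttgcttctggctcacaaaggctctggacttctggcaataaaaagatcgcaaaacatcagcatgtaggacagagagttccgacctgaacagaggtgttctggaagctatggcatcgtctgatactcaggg
Afmid (chr11:117825669-117825968, plus strand): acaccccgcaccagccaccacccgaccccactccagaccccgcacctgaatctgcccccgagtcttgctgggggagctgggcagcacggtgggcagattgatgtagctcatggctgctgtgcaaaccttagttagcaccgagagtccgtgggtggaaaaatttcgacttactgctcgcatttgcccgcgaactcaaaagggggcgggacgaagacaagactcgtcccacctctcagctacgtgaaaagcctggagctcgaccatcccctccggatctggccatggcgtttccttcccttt
Qprt (chr7:127121980-127122279, minus strand): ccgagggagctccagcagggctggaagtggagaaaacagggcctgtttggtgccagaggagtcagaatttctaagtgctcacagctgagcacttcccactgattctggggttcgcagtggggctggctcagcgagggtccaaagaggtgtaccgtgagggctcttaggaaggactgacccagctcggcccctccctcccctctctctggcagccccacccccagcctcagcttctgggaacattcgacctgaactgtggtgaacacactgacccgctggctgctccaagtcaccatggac
AGGTCA on either strand occurred in the windows of Haao and Nampt, and in 16.3% of 32851 mouse promoter windows of 300 bases. GGTCAAA, a form picked after the sequences had been read, occurred in those of Haao and Kmo, and in 2.5% of all windows. In Haao both forms overlap in the same run of letters, where AGGTCA begins at base 193 of the window. GTTAAT was found in Haao (7.1% of all windows), and TGACNNNGC, the antioxidant response core, in Qprt (12.4%). CACGTG, the E-box of clock and MYC factors, was in none of the windows of these 7 genes and in 7.2% of all. These are matches of letters, and binding was not measured.

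Of the 10 genes, 0 passed the edgeR quasi-likelihood test at a Benjamini-Hochberg adjusted p under 0.05, where 1 of all 15416 genes tested did (0.00649%). DESeq2, run on the same counts as an alternative, called 3 of the 10 higher (Afmid, Haao and Kmo) and 0 lower, against 3.4% of genes called higher by it. These were the 3 genes whose CePPy libraries all lay above all vehicle libraries, a separation seen in 12.3% of genes tested in that direction, and the same 3 had an unadjusted edgeR p under 0.05, against 9.65% of genes. In the other direction 0 of the 10 were called or lay wholly below, against 3.2% by DESeq2, 9.37% at an unadjusted p and 14% by separation. Counting both directions, DESeq2 called 6.6% of genes, and 26.3% did not overlap. Fold changes of the 10 genes had a median of 0.24 on the log2 scale, with 9 above 0 and Qprt below, and the median over all genes tested was 0.00. The median of the 10 became 0.13 without CePPy 1, a value also added after seeing the data.

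**Figure D1:**
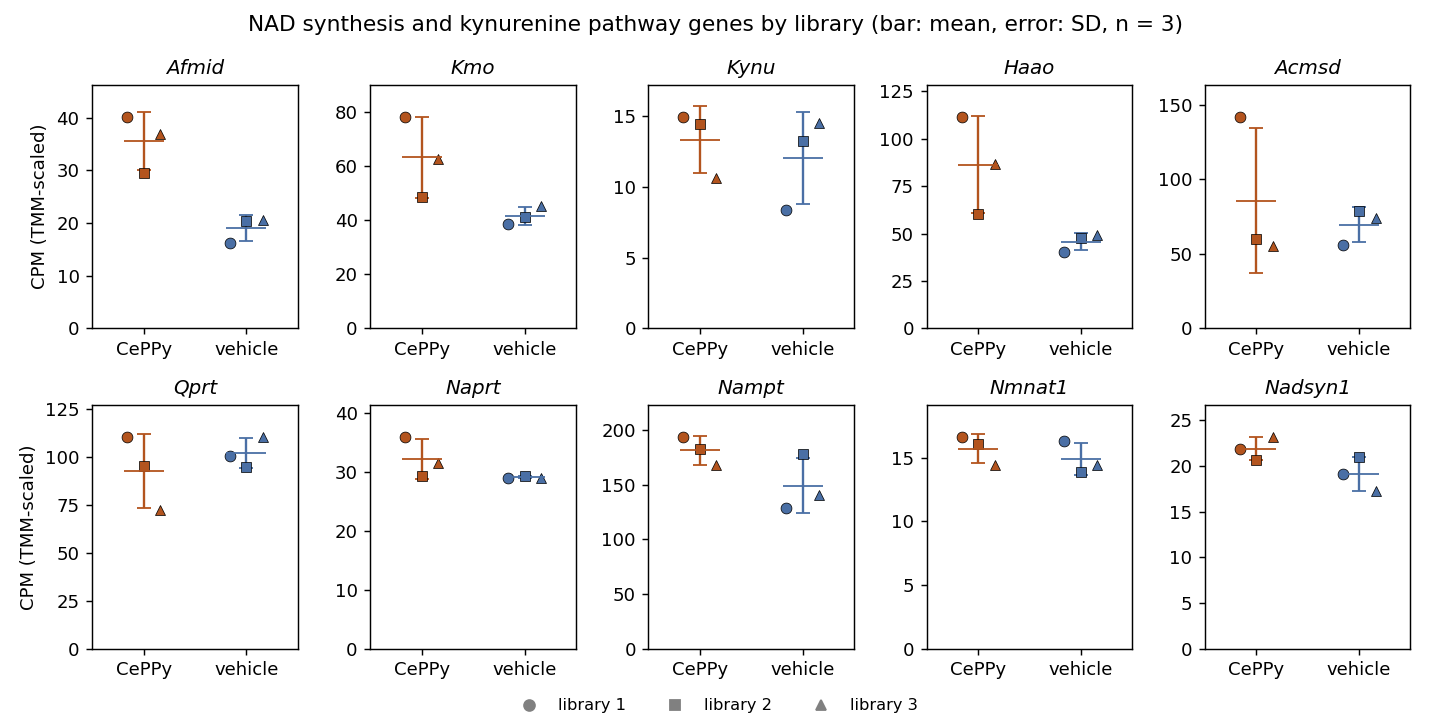
Levels of the 10 genes in CPM on TMM-scaled library sizes, with 1 panel per gene and axes from 0. Points are libraries, with the same marker for the same number in the titles, bars are means and error bars SD over 3 libraries per group. The 3 CePPy points lie above the 3 vehicle points for Afmid, Kmo and Haao, while for Qprt and Acmsd the groups overlap.

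Afmid encodes the formamidase that releases kynurenine (chromosome 11, 117825924 to 117839908, plus strand, GRCm38). It measured 40.2, 29.5 and 36.9 CPM in CePPy 1, 2 and 3, against 16.2, 20.5 and 20.6 CPM in vehicle 1, 2 and 3. Every CePPy library lay above every vehicle library, with means of 35.6 ± 5.48 and 19.1 ± 2.49 CPM (SD, n = 3 each). On the log2 scale the fold change was 0.90 (SE 0.15, 95% interval 0.56 to 1.23), and it did not pass (edgeR adjusted p = 0.0813). DESeq2 gave an adjusted p of 2.1e-05. A second gene model, Gm20708, shares 1566 of its 1780 exon bases with Afmid on the same strand, and reads there could have gone to either. Gm20708 measured 11.7, 0.452 and 13.4 CPM in CePPy 1, 2 and 3 and 7.32, 5.59 and 9.71 CPM in vehicle 1, 2 and 3, so it was almost without counts in CePPy 2. With both models summed, a step chosen after seeing the data, the levels were 51.9, 29.96 and 50.3 CPM in CePPy and 23.6, 26.1 and 30.3 CPM in vehicle. Summed in this way the groups overlapped, as CePPy 2 lay just under vehicle 3, and the log2 fold change was 0.72 (SE 0.21, edgeR adjusted p = 0.146). Tk1, the thymidine kinase gene that starts next to Afmid on the other strand and shares 83 exon bases with it, measured 13.3, 19.97 and 23.7 CPM in CePPy and 35.9, 28.2 and 30.3 CPM in vehicle. Its levels ran the other way from those of Afmid.

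Kmo encodes the kynurenine 3-monooxygenase of the outer mitochondrial membrane (chromosome 1, 175620381 to 175662116, plus strand). Levels were 78.3, 48.5 and 62.8 CPM in CePPy 1, 2 and 3 and 38.7, 41.1 and 45.2 CPM in vehicle 1, 2 and 3. The groups did not overlap, although CePPy 2 was within 4 CPM of vehicle 3. Its log2 fold change was 0.60 (SE 0.16, 95% interval 0.22 to 0.98), and edgeR did not call it (adjusted p = 0.137), while DESeq2 did (adjusted p = 0.0184).

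Haao encodes the dioxygenase that opens the ring of 3-hydroxyanthranilate (chromosome 17, 83831156 to 83847963, minus strand). It measured 112, 60.3 and 86.9 CPM in CePPy 1, 2 and 3, against 40.4, 47.7 and 49.2 CPM in vehicle 1, 2 and 3. All CePPy libraries were higher than all vehicle libraries, and CePPy 1 was highest. Its log2 fold change was 0.91 (SE 0.20, 95% interval 0.44 to 1.39), without passing in edgeR (adjusted p = 0.110) and passing in DESeq2 (adjusted p = 0.000767). Among all genes tested, 96.3% had a lower fold change than Haao, 96.2% a lower one than Afmid and 91.9% a lower one than Kmo. Levels of Haao, Kmo and Afmid ran in the same order over the CePPy libraries, CePPy 1 above CePPy 3 above CePPy 2, which is also the order of the summed markers of the proximal tubule, the thick ascending limb and the distal and collecting ducts. Naprt, whose groups overlapped, ran in this order too.

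Kynu, the kynureninase between Kmo and Haao in the route (chromosome 2, 43555329 to 43682715, plus strand), did not share this pattern. It measured 14.9, 14.4 and 10.6 CPM in CePPy 1, 2 and 3 and 8.35, 13.2 and 14.5 CPM in vehicle 1, 2 and 3. The groups overlapped, and the lowest library was vehicle 1. The log2 fold change of 0.15 (SE 0.22, 95% interval -0.37 to 0.67, edgeR adjusted p = 0.748) leaves room for a change in either direction, and it was -0.06 without vehicle 1. KYNU and KMO are also made by myeloid cells, and summed levels of 8 macrophage and monocyte markers were 192 to 234 CPM in CePPy against 220 to 260 CPM in vehicle. All 8 were detected, as were all 5 neutrophil markers, which summed to 8.78 to 19.3 CPM in CePPy and 30.3 to 45.9 CPM in vehicle. The part of these cells in the Kynu and Kmo values was not tested. The ratio of Kynu to Kmo counts was 0.191, 0.298 and 0.169 in CePPy and 0.216, 0.322 and 0.320 in vehicle. On the log2 scale its difference was -0.41 (exact two-sided permutation p = 0.2, adjusted over 3 ratios 0.3, where the smallest p that 3 against 3 libraries allow is 0.1).

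Acmsd encodes the decarboxylase that takes the semialdehyde away from NAD synthesis (chromosome 1, 127729413 to 127767978, plus strand). It measured 142, 60.0 and 55.2 CPM in CePPy 1, 2 and 3, against 56.1, 78.5 and 74.0 CPM in vehicle 1, 2 and 3. CePPy 1 was the highest library and CePPy 3 the lowest, so the CePPy group enclosed the vehicle group, with a coefficient of variation of 56.9% in CePPy and 17.01% in vehicle. The log2 fold change of 0.30 (SE 0.34, 95% interval -0.49 to 1.10, edgeR adjusted p = 0.662) rested on CePPy 1. Without that library it was -0.27, and edgeR did not call it (adjusted p = 0.372).

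Qprt encodes the quinolinate phosphoribosyltransferase, the step that commits the kynurenine route to NAD (chromosome 7, 127107114 to 127122226, minus strand). Its levels were 110, 95.2 and 72.0 CPM in CePPy 1, 2 and 3 and 100, 94.8 and 110 CPM in vehicle 1, 2 and 3. CePPy 3 was the lowest of the 6 libraries, and the other CePPy libraries lay within the vehicle range. The log2 fold change was -0.14 (SE 0.15, edgeR adjusted p = 0.641), with a 95% interval of -0.49 to 0.21, and it was 0.01 without CePPy 3. The count ratio of Haao to Qprt, chosen after the values were seen, was 1.01, 0.633 and 1.21 in CePPy and 0.403, 0.503 and 0.446 in vehicle, with no overlap. As it sets the highest fold change of the 10 genes against the lowest, this separation is no separate result, and other pairs were not counted. The ratio of Acmsd to Qprt, the rival enzymes at the semialdehyde, was 1.29, 0.630 and 0.767 in CePPy and 0.559, 0.828 and 0.670 in vehicle. It overlapped between groups, with a log2 difference of 0.34 (exact permutation p = 0.5, adjusted 0.5) that became 0.04 without CePPy 1. Over the 6 libraries, and among the 9477 annotated genes averaging 10 CPM or more, the genes whose log2 CPM ran most like that of Qprt were Dpp7, Med25, Clrn3, Tigd2 and Cisd2. Their Pearson r lay between 0.971 and 0.998, as a description over 6 points that share their scaling.

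Naprt, the entry enzyme of the Preiss-Handler route (chromosome 15, 75890956 to 75894481, minus strand), measured 35.9, 29.2 and 31.5 CPM in CePPy 1, 2 and 3. In vehicle it measured 29.0, 29.3 and 28.9 CPM, the tightest group of the 10 genes. CePPy 2 fell inside the vehicle range, and the log2 fold change was 0.15 (SE 0.10, 95% interval -0.08 to 0.37, edgeR adjusted p = 0.440). Its annotation shares 277 exon bases with Eef1d on the same strand. Nadsyn1, the NAD synthetase that ends the acid routes (chromosome 7, 143795584 to 143822849, minus strand), measured 21.9, 20.7 and 23.2 CPM in CePPy and 19.1, 20.95 and 17.3 CPM in vehicle. Only vehicle 2 reached into the CePPy range, and the log2 fold change was 0.20 (SE 0.11, 95% interval -0.05 to 0.44, edgeR adjusted p = 0.355).

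Nampt, the rate-limiting enzyme of nicotinamide salvage (chromosome 12, 32819545 to 32853349, plus strand), measured 194, 183 and 168 CPM in CePPy 1, 2 and 3 and 129, 178 and 141 CPM in vehicle 1, 2 and 3. All CePPy libraries were above vehicle 1 and 3, and vehicle 2 lay within the CePPy range. The log2 fold change was 0.28 (SE 0.13, 95% interval -0.01 to 0.58, edgeR adjusted p = 0.282) and ranged from 0.19 without vehicle 1 to 0.43 without vehicle 2. The ratio of Nampt to Qprt, salvage against the de novo route, was 1.76, 1.92 and 2.34 in CePPy and 1.29, 1.88 and 1.28 in vehicle. Its log2 difference was 0.45 (exact permutation p = 0.2, adjusted 0.3), with vehicle 2 inside the CePPy range. Nmnat1, the nuclear adenylyltransferase (chromosome 4, 149467572 to 149485202, minus strand), measured 16.7, 16.1 and 14.4 CPM in CePPy and 16.3, 13.9 and 14.5 CPM in vehicle. Its groups overlapped, and the log2 fold change was 0.08 (SE 0.11, 95% interval -0.18 to 0.34, edgeR adjusted p = 0.736).

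**Figure D2:**
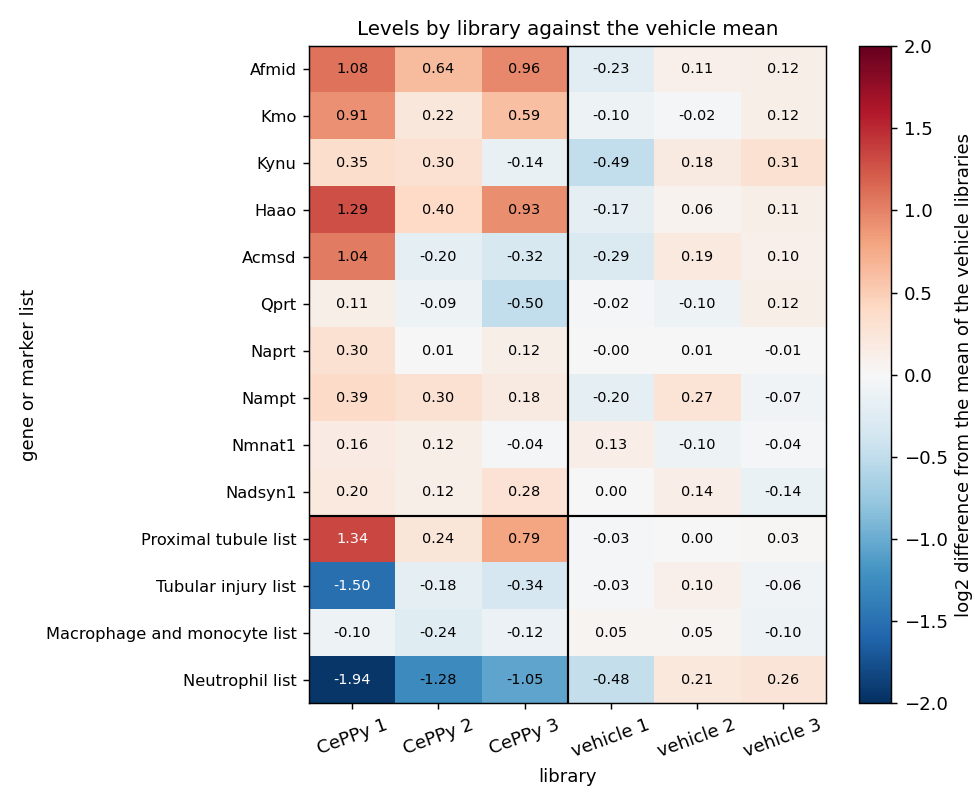
Log2 difference of each library from the mean of the log2 levels of the vehicle libraries, for the 10 genes above the line and for 4 marker lists below it, where list values are means over genes. Afmid, Kmo and Haao read 1.08, 0.91 and 1.29 in CePPy 1 and 0.64, 0.22 and 0.40 in CePPy 2, beside 1.34 and 0.24 for the proximal tubule list, while Qprt reads 0.11 and -0.09.

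The rows of the library plot put the 3 higher genes beside the proximal tubule markers, all 12 of which had fold changes above 0 with 0 passing edgeR. DESeq2, which called the 3 genes, also called Slc34a1, Slc34a3, Slc22a8, Slc7a9, Aqp1 and Ttc36 higher, and not the other markers of this list. Set against the summed counts of those 12 markers within each library, Haao stood at 12.2, 15.0 and 14.5 per 1000 marker counts in CePPy and 11.9, 13.9 and 13.7 in vehicle. Afmid stood at 4.38, 7.34 and 6.16 in CePPy and 4.76, 5.97 and 5.73 in vehicle. Kmo stood at 8.53, 12.1 and 10.5 in CePPy and 11.4, 11.98 and 12.6 in vehicle. On this scale the groups of all 3 genes overlapped, with log2 differences of 0.08, 0.09 and -0.22. The sum is weighted by abundance, and Slc34a1 alone held 3991, 1531 and 2270 of its 9178, 4023 and 5999 CPM in CePPy 1, 2 and 3. In vehicle Slc34a1 held 1036 to 1160 of 3410 to 3600 CPM. Its log2 fold change was 1.25, where the median of the 12 markers was 0.81. No sum without Slc34a1 was made, so the overlap holds for this sum only. Qprt was at 11.99, 23.7 and 12.003 per 1000 marker counts in CePPy and at 29.5, 27.6 and 30.7 in vehicle, below vehicle in each CePPy library, with a log2 difference of -0.96. The summed markers were themselves higher in CePPy by 0.80 on the log2 scale, so a gene with the same CPM in both groups reads -0.80 here, and 8 of the 10 genes were below 0. Naprt, Nmnat1 and Acmsd were also below vehicle in every CePPy library on this scale, with log2 differences of -0.66, -0.72 and -0.62. The share of all genes below vehicle on this scale was not computed, so these counts show nothing particular to the 10 genes. This scale was added after seeing the data, and no test was made on it. These markers were chosen with earlier results of these data known, and the part of tubule cell numbers in the levels was not tested. Liver makes the same enzymes, and its marker Alb measured 5.29, 5.08 and 5.23 CPM in CePPy and 3.79, 5.94 and 6.09 CPM in vehicle, with Apoa1 at 0.23 CPM or less in every library. The third liver marker, Serpina1a, which has close paralogs beside it, measured 31.9 to 60.6 CPM in CePPy and 10.1 to 16.9 CPM in vehicle.

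Scaled to the length of merged exons, Qprt, Nampt and Acmsd were the most abundant of the 10 transcripts and Kynu the least. In CePPy libraries Nampt averaged 36.0 ± 2.56 CPM per kb, Qprt 34.9 ± 7.25 and Acmsd 30.3 ± 17.2, followed by Haao at 18.4 ± 5.49, Naprt at 13.7 ± 1.449, Kmo at 13.4 ± 3.15 and Afmid at 10.05 ± 1.55 (SD, n = 3). Nadsyn1 at 6.63 ± 0.385, Nmnat1 at 5.18 ± 0.381 and Kynu at 2.17 ± 0.386 CPM per kb closed the order. Neighbours from Nampt down to Afmid overlapped in CePPy, and Afmid, Nadsyn1, Nmnat1 and Kynu were separated from each other in all 3 CePPy libraries. In vehicle libraries Qprt led at 38.5 ± 2.98 CPM per kb, before Nampt at 29.6 ± 5.04, Acmsd at 24.6 ± 4.18, Naprt at 12.4 ± 0.0821, Haao at 9.78 ± 1.003 and Kmo at 8.82 ± 0.691. Nadsyn1 at 5.79 ± 0.549, Afmid at 5.40 ± 0.704, Nmnat1 at 4.91 ± 0.414 and Kynu at 1.95 ± 0.526 CPM per kb followed. There Nampt overlapped with Acmsd, Haao with Kmo, and Nadsyn1, Afmid and Nmnat1 with each other, while the other neighbours did not. Haao thus stood above Naprt in CePPy, where they overlapped, and below it in vehicle, where they did not. The value of Afmid depends on how reads were split with Gm20708.

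**Figure D3:**
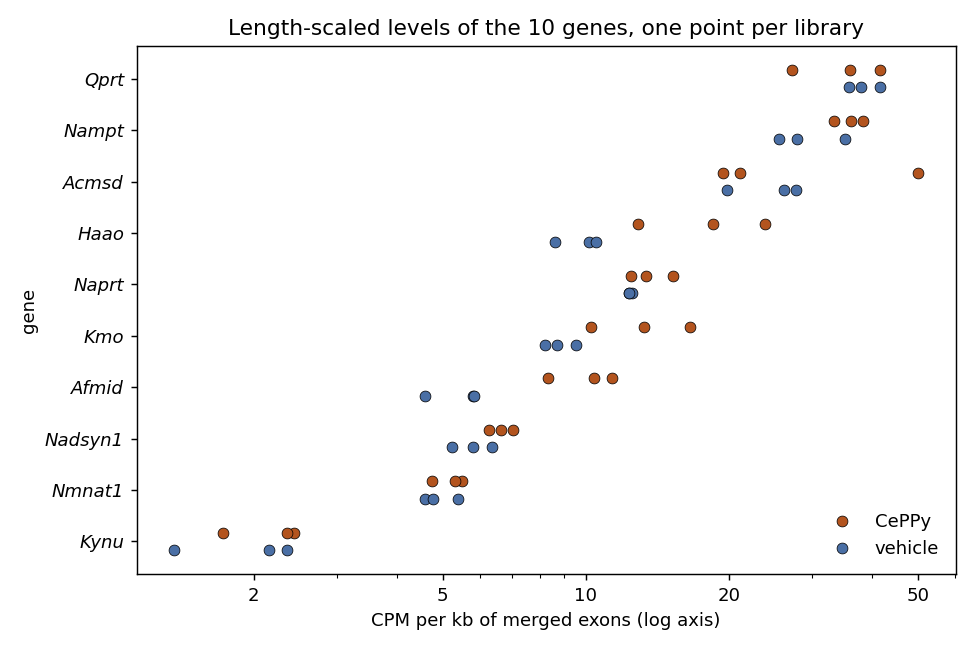
Levels of the 10 genes in CPM per kb of merged exons on a log axis, with 1 point per library and CePPy drawn above vehicle. Qprt, Nampt and Acmsd lie near 20 to 50, Kynu near 2, and the CePPy points of Haao, Kmo and Afmid lie to the right of their vehicle points.

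A wider list of NAD genes had 46 rows in the table, of which 42 were tested. None passed edgeR in either direction (0 of 42, against 0.00649% of all genes). At an unadjusted p under 0.05 there were 7 with higher and 5 with lower values, against 9.65% and 9.37% of all genes, and 7 lay wholly above and 5 wholly below vehicle, against 12.3% and 14% of all genes. The median log2 fold change of the list was 0.08. DESeq2 called 5 higher (Slc5a8, Slc22a13, Ido2, Kyat3 and Aadat, the last named after its values were seen) and 2 lower (Nadk and Got2), against 3.4% and 3.2% of all genes.

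The enzymes that open tryptophan were scarce in these kidneys. Tdo2, the dioxygenase known from liver, had between 0 and 17 counts per library, at most 0.567 CPM, and Ido1, its interferon-inducible counterpart, had 5 counts in vehicle 3 and 0 in each other library. A count of 0 allows up to 0.10001 CPM at the depth of the shallowest library, counting error only. Ido2, a weaker relative, measured 4.90, 1.22 and 2.73 CPM in CePPy 1, 2 and 3 and 1.22, 0.647 and 0.446 CPM in vehicle 1, 2 and 3. CePPy 2 and vehicle 1 were level, with 46 and 44 counts, so the groups overlapped, and the log2 fold change was 1.92 (SE 0.57, edgeR adjusted p = 0.151). Kyat3, an aminotransferase that turns kynurenine into kynurenic acid, averaged 31.8 ± 10.9 CPM in CePPy and 18.6 ± 1.68 CPM in vehicle, with no overlap (log2 fold change 0.77, SE 0.22, edgeR adjusted p = 0.146). Got2, the mitochondrial aspartate aminotransferase that also acts on kynurenine, averaged 329 ± 16.97 CPM in CePPy and 390 ± 3.77 CPM in vehicle (-0.25, SE 0.08, edgeR adjusted p = 0.172).

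Of the transporters, 2 that carry nicotinate in tubule cells had the largest differences. Slc5a8, the sodium-coupled monocarboxylate transporter, measured 150, 61.0 and 95.4 CPM in CePPy 1, 2 and 3 and 47.1, 46.9 and 37.1 CPM in vehicle 1, 2 and 3. Slc22a13, the organic anion transporter OAT10, measured 33.8, 15.98 and 22.6 CPM in CePPy and 12.4, 11.5 and 6.83 CPM in vehicle. Neither overlapped between groups, and their log2 fold changes of 1.23 (SE 0.29) and 1.23 (SE 0.31) did not pass edgeR (adjusted p = 0.117 and 0.122). Both ran in the order CePPy 1 above CePPy 3 above CePPy 2. So did the summed markers of the proximal tubule, the thick ascending limb and the distal and collecting ducts, and the proximal tubule sum was higher by 0.80 on the log2 scale. The part of tubule cell numbers in the levels of Slc5a8 and Slc22a13 was not tested. Slc16a10, an aromatic amino acid transporter, averaged 49.6 ± 2.19 CPM in CePPy and 57.9 ± 6.58 CPM in vehicle, and Slc7a5, the light chain of the LAT1 carrier of tryptophan and kynurenine, 12.9 ± 3.34 and 15.4 ± 1.48 CPM, with overlap in both.

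**Figure D4:**
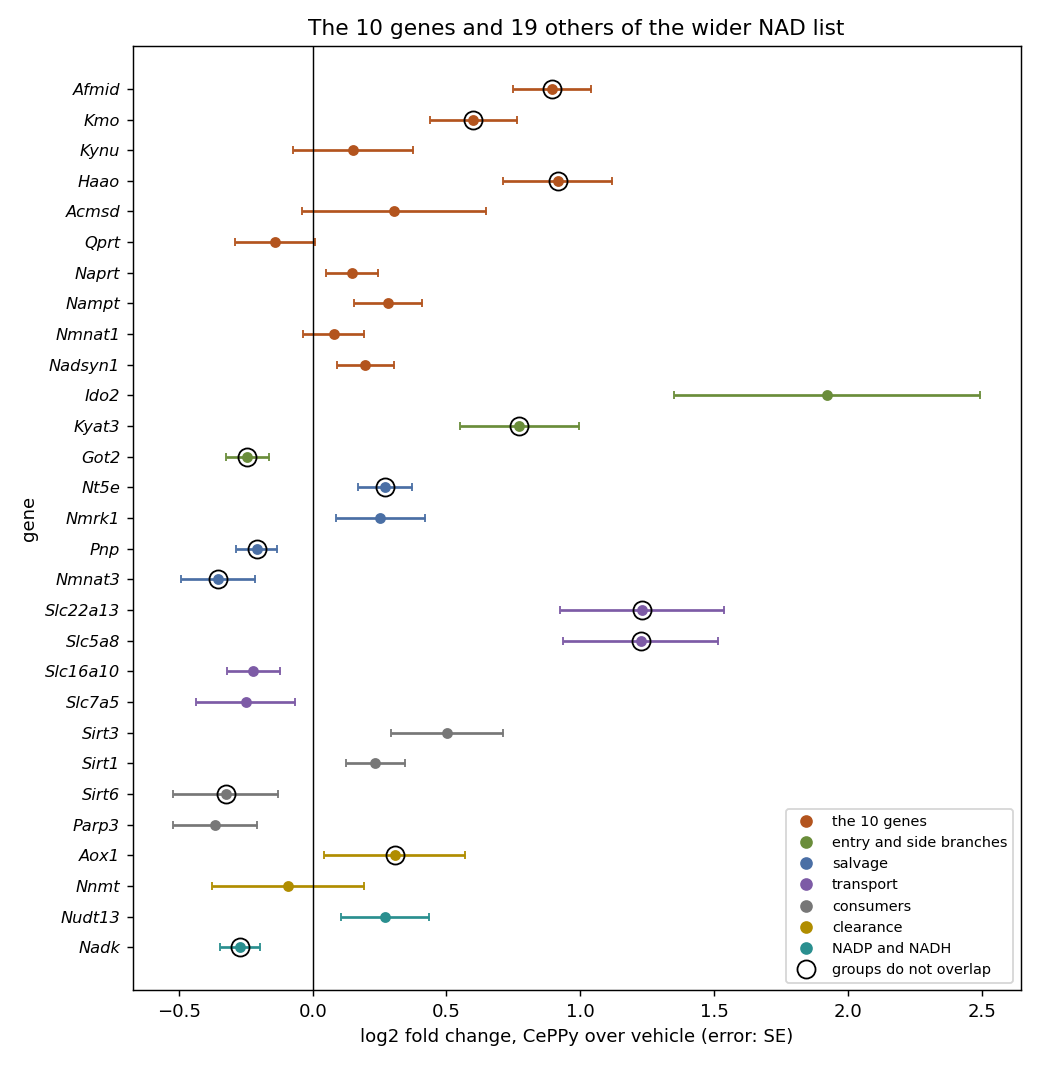
Log2 fold change of CePPy over vehicle with its SE from edgeR, for the 10 genes and 19 others of the wider list, coloured by role. Black rings mark genes whose groups do not overlap. Among the 10 genes the rings are on Afmid, Kmo and Haao, and outside them the estimates of Slc5a8 and Slc22a13 are both 1.23.

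In the other salvage steps, Nt5e, the ecto-nucleotidase CD73, averaged 118 ± 14.3 CPM in CePPy and 98.2 ± 4.82 CPM in vehicle (log2 fold change 0.27, edgeR adjusted p = 0.212). Nmrk1, the nicotinamide riboside kinase, averaged 87.6 ± 18.7 CPM in CePPy and 73.6 ± 11.4 CPM in vehicle (0.25, edgeR adjusted p = 0.438). Pnp, the purine nucleoside phosphorylase, averaged 108 ± 5.53 CPM in CePPy and 125 ± 3.32 CPM in vehicle, and Nmnat3, the mitochondrial relative of Nmnat1, 17.6 ± 1.69 and 22.5 ± 3.61 CPM. Both lay wholly below vehicle without passing (edgeR adjusted p = 0.200 and 0.225), and Pnp shares exons with another gene model. Nmrk2 had 0 counts in all 6 libraries.

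The consumers of NAD showed small differences in both directions, with 7 of 15 above 0 and a median of -0.02. Sirt3, the main mitochondrial deacetylase, measured 44.3, 23.5 and 37.5 CPM in CePPy 1, 2 and 3 and 25.2, 23.1 and 26.0 CPM in vehicle 1, 2 and 3, so that CePPy 2 fell within the vehicle range. Its log2 fold change was 0.50 (SE 0.21, edgeR adjusted p = 0.246), and it shares exon bases with Psmd13 and Ric8a on the other strand. Sirt1, the nuclear deacetylase, averaged 19.8 ± 1.25 CPM in CePPy and 16.8 ± 1.58 CPM in vehicle (0.23, edgeR adjusted p = 0.290). Parp3, a PARP enzyme of the DNA damage response, averaged 63.5 ± 14.6 and 81.9 ± 7.07 CPM in CePPy and vehicle, and Sirt6, a chromatin deacetylase, 6.59 ± 1.44 and 8.26 ± 0.831 CPM (edgeR adjusted p = 0.260 and 0.400).

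Nadk, the cytosolic kinase that turns NAD into NADP, measured 214, 223 and 218 CPM in CePPy 1, 2 and 3 and 271, 257 and 262 CPM in vehicle 1, 2 and 3. The groups were tight and did not overlap, with a log2 fold change of -0.27 (SE 0.07) that edgeR did not call (adjusted p = 0.137) and DESeq2 did (adjusted p = 0.0107). Nudt13, a hydrolase that acts on NADH, averaged 11.4 ± 1.91 CPM in CePPy and 9.47 ± 1.10 CPM in vehicle. Of the genes that clear nicotinamide, Nnmt, the methyltransferase, averaged 2.40 ± 0.740 CPM in CePPy and 2.56 ± 0.106 CPM in vehicle, Aox1, an oxidase, 1.70 ± 0.150 and 1.37 ± 0.111 CPM, and Aox3 was under 0.6 CPM throughout. Nnt, the transhydrogenase of the inner mitochondrial membrane, has 2 overlapping entries in the table. The first held 40.6, 57.5 and 66.2 CPM in CePPy and 18.4, 54.3 and 22.6 CPM in vehicle, and the other 50.1, 3.94 and 7.33 CPM in CePPy and 44.9, 5.59 and 43.7 CPM in vehicle. The 3 libraries with over 50 CPM in the first held under 8 CPM in the other, and the sums were 90.7, 61.4 and 73.5 CPM in CePPy and 63.3, 59.9 and 66.3 CPM in vehicle, so no direction is given for the single entries.

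Whether Afmid, Haao and Kmo were called depended on the tool and on CePPy 2. For Afmid the call also depended on the filter on low counts, without which edgeR called it (adjusted p = 0.0436). The sum of Afmid and Gm20708 was tested with edgeR and all libraries only (adjusted p = 0.146). Without CePPy 2, edgeR called all 3, at a background of 2.98% of genes called higher. Log2 fold changes were then 1.01, 1.12 and 0.76, with edgeR adjusted p of 0.0166, 0.0142 and 0.0227. CePPy 2 was the lowest CePPy library for all 3 genes, so leaving it out necessarily raised the CePPy means. These calls are therefore no independent check. With any other single library left out, edgeR called none of the 3 genes. Their estimates stayed above 0 in each of the settings tried, between 0.42 (Kmo without CePPy 1) and 1.12.

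**Figure D5:**
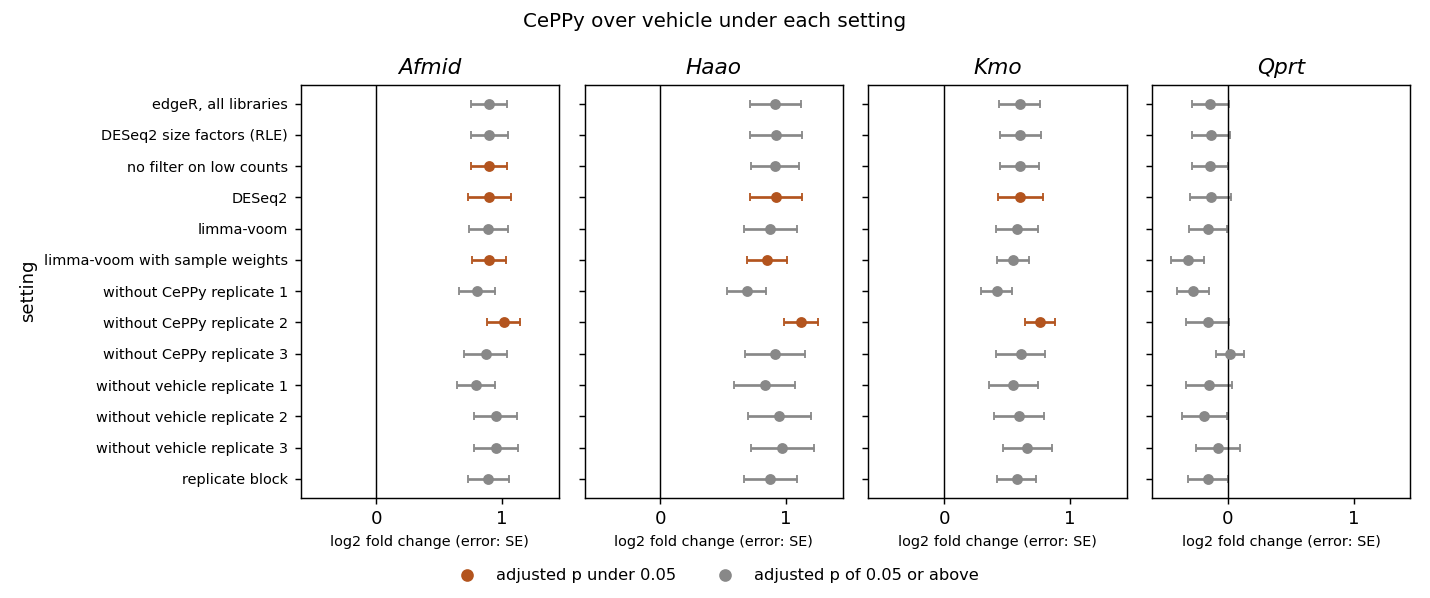
Log2 fold change of CePPy over vehicle with its SE for Afmid, Haao, Kmo and Qprt under edgeR with all libraries and 12 other settings. Coloured points have an adjusted p under 0.05. Afmid, Haao and Kmo lie right of 0 throughout and are coloured under DESeq2 and without CePPy 2, and Qprt is coloured under none.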

How the data were processed

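Per the labels' protocols, libraries were made from 2 µg of TRIzol-extracted RNA with a Yeasen mRNA kit. The authors deposited raw counts for each gene and sample, which are whole numbers and not normalized. TopHat2, Cufflinks, DESeq and the build GRCm38 appear in the submitters' processing notes. The counting program, its use of strand and its treatment of shared reads are nowhere stated in the sources used, so reads of overlapping genes may be split or mixed.

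Counts were filtered with filterByExpr, scaled by TMM and compared with the edgeR 4.0.16 quasi-likelihood test (R 4.3.3), with treatment as the only term and p-values adjusted over all 15416 genes tested. Means carry the SD (n = 3), and log2 fold changes, CePPy over vehicle, carry their SE. DESeq2 1.42.0, limma 3.58.1 (limma-voom), other scalings and filters, each library left out and a replicate block were alternatives. Ratios used counts plus 0.5 and an exact permutation test over 20 splits. Libraries of one group differed by more than sampling noise (chi-square per degree of freedom 19.7 or more). Levels per kb and coordinates use GENCODE M21, in which all 10 genes were found. The tests were also run on simulated counts, drawn independently for each gene. Shifts shared by many genes of a library were not simulated, so that run says nothing about them. The genes, the wider list and the markers were chosen with earlier results of these data known. Named from the wider list were at most the 2 genes of lowest p per direction and role, and Tdo2, Ido1, Nmrk2 and Aadat were named outside that rule after their values were seen. Promoter windows of 7 of the 10 genes were read, and those of the other 3 are not used here.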

Additional observations from a re-analysis of the deposited data

How the results depend on the processing

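With all 6 libraries, edgeR called 0 genes higher and 1 lower, 0 of the 10 genes and 0 of the wider list, where 1487 genes had an unadjusted p under 0.05 with higher and 1444 with lower values. Without the filter on low counts it called 26 higher and 37 lower, and 1 of the 10 genes, Afmid (adjusted p = 0.0436). DESeq2 called 512 higher and 481 lower, with 3 of the 10 genes higher and 5 higher and 2 lower of the wider list. limma-voom with sample weights called 148 higher and 204 lower, with 2 of the 10 (Afmid and Haao) and 1 of the wider list higher, Slc5a8. limma-voom and edgeR with DESeq2's size factors gave the counts of the main test. Leaving out 1 library gave 0 to 467 genes higher and 0 to 344 lower, 0 to 3 of the 10 genes, and 0 to 4 higher and 0 to 1 lower of the wider list, with the highest counts without CePPy 2. Of 993 DESeq2 calls and 811 without CePPy 2, 573 were shared, including all 3 of the 10 genes. Deviations of same-numbered libraries correlated across genes at -0.15, 0.10 and -0.02, and those of differently numbered libraries at -0.15 to 0.18. No pairing by number was seen, but with 3 libraries per group this check cannot exclude one. With the replicate block, edgeR called 0 genes in either direction, and the fold change of Afmid was 0.89, of Haao 0.88 and of Kmo 0.58.

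Signs changed for 4 of 121 values of the 10 genes under these settings, none of them called. Acmsd was -0.11 with limma-voom with sample weights and, with 1 library left out, -0.27 (without CePPy 1) to 0.54. Qprt was -0.28 to 0.015 (without CePPy 3) and Kynu -0.056 (without vehicle 1) to 0.30 with 1 library left out. Of the wider list, Nnmt was 0.048 with sample weights and -0.28 to 0.14 (without CePPy 1) with 1 library left out, and Aox3 -0.53 (without CePPy 2) to 0.93, with -0.37 without vehicle 3. The causes were not tested. The 3 count ratios kept their direction with 2 counts added and with each library left out, from 0.04 to 0.55 for Acmsd over Qprt, -0.65 to -0.24 for Kynu over Kmo and 0.34 to 0.64 for Nampt over Qprt, and paired by number they were 0.34, -0.41 and 0.45.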
